A study of Mus musculus with 12 samples.

Results

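The genes described here are the receptors, SMAD proteins and ID target genes of the bone morphogenetic protein (BMP) pathway in mouse male germ cells: Bmpr1a, Bmpr1b, Bmpr2, Smad1, Smad5, Smad6, Smad7, Id1, Id2 and Id3. They were found by matching the Ensembl identifiers of the deposited table to these symbols, which gave 10 of the 55487 genes in the table. All 10 passed the filter on low values used for testing. RNA was sequenced in 12 libraries of male germ cells (gonocytes) from testes of Mvh-Venus transgenic mice, in which Mvh (Ddx4) regulatory sequence drives a fluorescent protein in the germ line. Each of 4 stages had 3 libraries: 2 fetal (E13.5 and E16.5, in days of gestation), newborn (P0) and 3 days after birth (P3). Titles call every sample wild type, whereas the genotype tag reads Morc1 (+/-) at E13.5 and P0 and Morc1 (-/-) at E16.5 and P3. The groups are therefore called by stage here. In comparisons that cross the tag, stage and a genotype difference cannot be told apart, and only P0 against E13.5 and P3 against E16.5 stay within a tag. All stages carry the Venus transgene. The labels do not say how many animals a library pools or whether the 3 libraries of a stage come from separate animals, so p-values measure the spread between these samples only.

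BMP ligands bind pairs of type I receptors, such as BMPR1A and BMPR1B, and type II receptors, such as BMPR2. The active type I receptor phosphorylates SMAD1 and SMAD5, which enter the nucleus with SMAD4 and switch on target genes, while the inhibitory SMAD6 and SMAD7 are induced by the pathway and dampen it. Id1, Id2 and Id3 are classical targets whose proteins bind E proteins and keep them off DNA. In the mouse embryo BMP signals are known for their part in the specification of primordial germ cells.

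All 5 male germ cell markers (Ddx4, Dazl, Mael, Dnd1 and Tex101) were present at every stage. Values are normalized counts, the reads of a gene divided by the size factor of its library. The summed germ cell markers were 243300 to 252900 at E13.5, 231200 to 256800 at E16.5 and 233200 to 254800 at P3, but 134100 to 141200 at P0. These sums and those below depend on the scaling of the table. Size factors averaged 1.94 at P0 against 0.94 (E13.5), 1.13 (E16.5) and 1.01 (P3). A larger size factor lowers normalized counts, so the lower P0 sum cannot be read as less germ cell RNA. Markers of other testis cells were also present. The summed peritubular and interstitial markers were 178.5 to 263.9 at E13.5, 1493 to 1943 at E16.5, 3402 to 3422 at P0 and 1873 to 2113 at P3. The summed Sertoli markers were 1010 to 1577, 1536 to 2813, 3289 to 6197 and 1306 to 2048 in the same order. Reads assigned to genes numbered 40946616 to 51533747 per library. Morc1, the gene that the genotype tag concerns, was at 1621 to 1830 (E13.5), 28330 to 32920 (E16.5), 7280 to 7708 (P0) and 10580 to 11130 (P3). The stages tagged (-/-) thus had higher counts than those tagged (+/-). Stage differs too between them, so these counts cannot show the genotype.

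The 10 genes fell into groups by how their level moved with stage. Bmpr1a, Smad1, Smad5, Smad6 and Smad7 were high at E13.5, fell 3.60-fold to 4.52-fold by E16.5 and were higher at P3 than at P0 and E16.5; 25.6% of all tested genes likewise were lower at E16.5 than at E13.5 and higher at P3 than at P0. Id1, Id2 and Id3 also fell between E13.5 and E16.5, Id3 by 38.5-fold, but at P3 all 3 remained far under their E13.5 level. Bmpr1b went the other way and rose 7.15-fold at E16.5. Bmpr2 stayed low at every stage. All 10 genes differed among the 4 stages by limma's F-test, where 95.2% of the 22384 tested genes did so too. In bulk samples such as these, fewer cells that express a gene and less RNA of it per cell cannot be told apart.

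**Figure D1:**
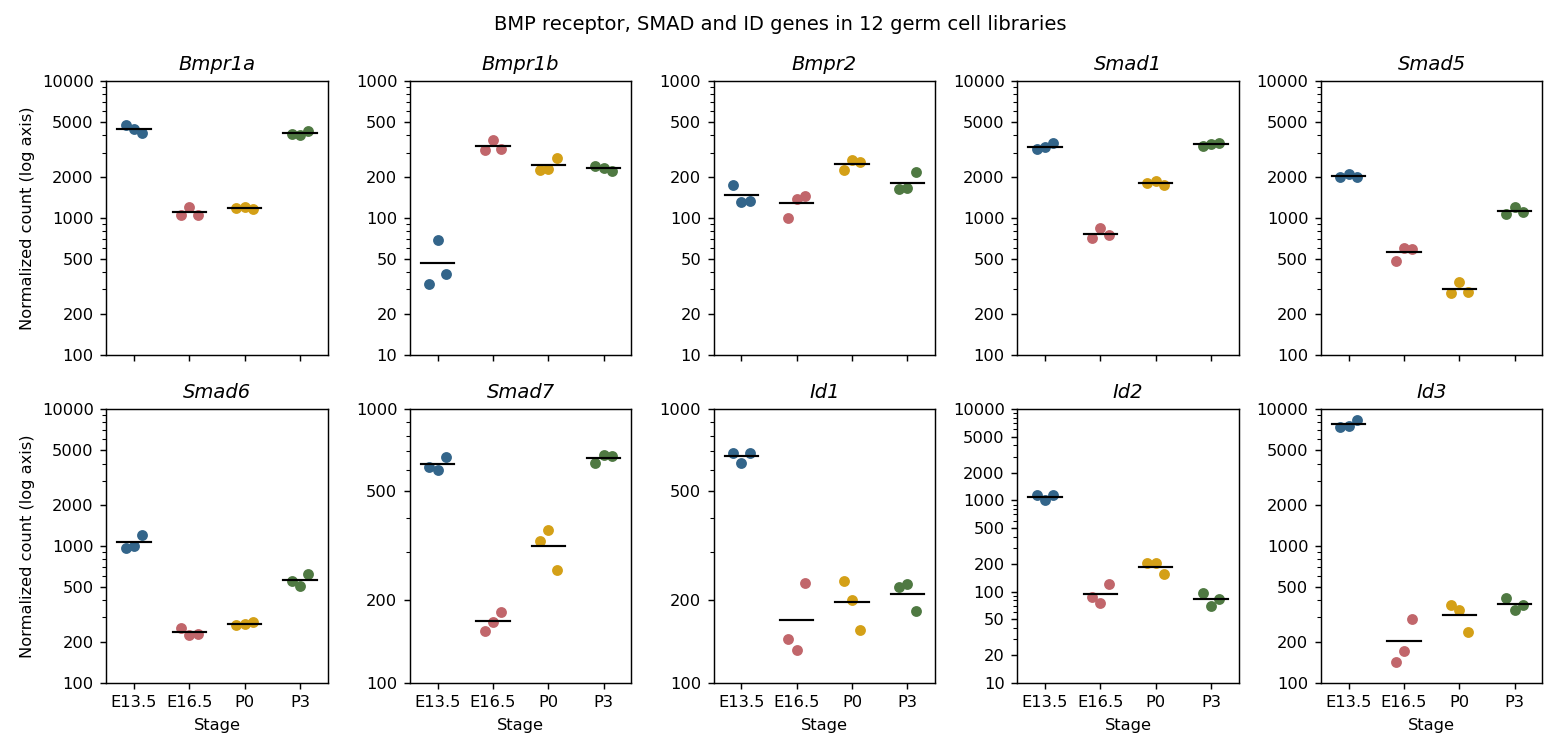
Normalized count of each gene (log axis) in each of the 12 libraries, by stage on the horizontal axis. Points are libraries and the black line is the mean of 3. Bmpr1a, Smad1 and Smad7 had P3 means near their E13.5 means under the scaling of the table, with 4151 against 4465, 3465 against 3319 and 661.2 against 628.3, whereas Id3 did not, with 375.0 against 7740. The vertical scale differs between panels.

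Upstream windows in RefSeq (GRCm38.p6) were examined for the genes of this set other than Id1 and Smad7. Promoter sequence is shown for the 3 of them with a window that holds no annotated exon. These are Smad5 and Smad6, which fell together at E16.5, and Bmpr1b, which rose. Each line gives the 250 bases before a RefSeq start, 5′ to 3′ on the strand of the gene, with CG dinucleotides in capitals. Windows are chr13:56702760-56703009 (+) for Smad5, chr9:64022060-64022309 (-) for Smad6 and chr3:141982265-141982514 (-) for Bmpr1b, the last inside an intron of the longer GENCODE gene.
Smad5: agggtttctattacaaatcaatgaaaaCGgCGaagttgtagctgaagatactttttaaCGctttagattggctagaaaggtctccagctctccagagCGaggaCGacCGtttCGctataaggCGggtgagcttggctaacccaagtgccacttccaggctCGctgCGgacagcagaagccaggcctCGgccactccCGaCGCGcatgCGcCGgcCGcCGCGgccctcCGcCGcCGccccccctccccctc
Smad6: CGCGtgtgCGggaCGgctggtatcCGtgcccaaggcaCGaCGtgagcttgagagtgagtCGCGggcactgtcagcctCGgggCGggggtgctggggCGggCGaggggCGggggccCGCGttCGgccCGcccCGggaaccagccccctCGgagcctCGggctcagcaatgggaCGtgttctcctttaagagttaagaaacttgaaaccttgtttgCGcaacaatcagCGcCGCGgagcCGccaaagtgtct
Bmpr1b: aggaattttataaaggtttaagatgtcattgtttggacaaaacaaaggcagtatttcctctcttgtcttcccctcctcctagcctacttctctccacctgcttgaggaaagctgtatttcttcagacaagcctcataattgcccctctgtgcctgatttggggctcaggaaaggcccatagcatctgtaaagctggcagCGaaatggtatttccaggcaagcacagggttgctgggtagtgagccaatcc
The Smad5 window holds 22 CG at 60.0% GC, the Smad6 window 27 CG at 66.8% GC, and the Bmpr1b window 1 CG at 46.8% GC. RefSeq lists 2 further starts for Bmpr1b, whose windows, not printed, hold 5 CG each. The one at chr3:141931589-141931838 also holds no annotated exon. Among the other windows not printed, those of Bmpr1a, Smad1, Id2 and Id3 hold 36, 25, 18 and 18 CG, and those of Smad5 27 each. The window of Bmpr2, which was not called at E16.5 against E13.5, holds 22. Over 32851 promoter windows of this length the median was 6 CG, 14.8% held at least 22 and 18.8% held at most 1. The sequence GGCGCC, its own reverse complement and a known GC-rich motif of BMP-activated SMADs, was searched in the same windows and occurred in 9.59% of them. It is not in the 3 windows printed, and it is in a window of Bmpr1a, Bmpr2, Id2 and, at another RefSeq start, Smad5. Those windows hold 18 to 36 CG. The 9.59% is over windows of any CG content, and no share was computed for windows as rich in CG. It therefore cannot show whether the motif is more frequent in this set. For Id1 and Smad7 no window was examined. Annotated exons cover 141 of the 250 bases in the Bmpr1a window with the motif, 250 in Bmpr2, 161 in Id2 and 42 in Smad5. A match is a description of the letters only.

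Between E13.5 and E16.5 lay the clearest changes of the set. Of the 10 genes, 8 were lower and 1 was higher at E16.5, where 34.6% of all tested genes were lower and 45.5% were higher. The median log2 fold change of the 10 genes was -2.02 against 0.31 for all tested genes. At P0 against E16.5, 5 of the 10 were higher and 1 was lower, with 27.6% and 33.4% of all tested genes called in these directions; with equal library totals the split was 8 higher and 0 lower. At P3 against P0, 5 were higher and 2 were lower, where 40.1% and 36.4% of all tested genes were called. The last split depended on the scaling of the libraries: with equal library totals it was 2 higher and 5 lower. The median log2 fold change of all tested genes at P3 against P0 was 0.05 under the scaling of the table, -0.86 under equal totals and -0.42 under median-of-ratios factors. The P0 libraries carry the largest size factors, 1.84 to 2.07 against 0.919 to 1.263 elsewhere. Every direction that involves P0 is given here under the scaling of the deposited table, and ratios of genes within a library, which no scaling can move, are given further on.

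Among the type I receptors, Bmpr1a encodes the broadly expressed BMPR1A. It lies on the - strand of chromosome 14 at 34410734 to 34503341 (GRCm38, GENCODE M21). Its normalized counts ran 4776, 4445 and 4175 (E13.5), 1056, 1194 and 1055 (E16.5), 1174, 1203 and 1169 (P0) and 4084, 4037 and 4330 (P3), always in the order of libraries 1, 3 and 4, the numbers in the column heads. Every library of E13.5 and P3 lay far above every library of E16.5 and P0. Bmpr1a fell at E16.5 by 2.02 on the log2 scale (SE 0.0765, limma adjusted p 3.81e-13) and rose at P3 against P0 by 1.81 (adjusted p 2.38e-12). P3 and E13.5 overlapped, with a log2 fold change of -0.10 (95% interval -0.27 to 0.06, adjusted p 0.238), and equal library totals turned this to 0.22 (adjusted p 0.0158). An antisense gene, Gm17110, shares exon sequence with Bmpr1a: 3.77% of the 50-base words of Bmpr1a transcripts also occur there, and the strand setting of the counting is not stated.

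Bmpr1b encodes the type I receptor BMPR1B, best known from limb cartilage and the ovary. The gene lies on the - strand of chromosome 3 at 141837136 to 142169425. Normalized counts ran 33, 69 and 39 (E13.5), 315, 370 and 317 (E16.5), 225, 227 and 275 (P0) and 241, 230 and 221 (P3). The 3 E13.5 libraries were the lowest of the 12, and no later library came near them. Bmpr1b rose by 2.88 at E16.5 (log2, SE 0.222, limma adjusted p 3.26e-09) and was still 2.35 higher at P3 than at E13.5 (adjusted p 6.71e-08). Its fall of 0.53 between E16.5 and P3 (adjusted p 0.0434) was lost in 12 of 26 alternatives, among them the omission of any E16.5 or any P3 library (adjusted p 0.0645 to 0.131). The peritubular and interstitial sum (7 of 8 markers with at least 10 normalized counts in a library at E13.5, 8 of 8 at E16.5) was higher at E16.5 too. So was the macrophage sum, with 38.1 to 72.8 at E13.5 (2 of 5 markers) and 980.0 to 1156 at E16.5 (4 of 5), where Cd68 alone gave 938.0 ± 97.9 and Adgre1 47.5 ± 8.33. From E16.5 to P0 the mean peritubular and interstitial sum went from 1668 to 3412, and the mean macrophage sum from 1053 to 214.7. Bmpr1b means at these stages were 334.1 and 242.1. The part of peritubular, interstitial and macrophage cells in the Bmpr1b count was not tested.

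Bmpr2 encodes the type II receptor BMPR2 and lies on the + strand of chromosome 1 at 59763400 to 59879014. Normalized counts ran 175, 131 and 133 (E13.5), 100, 138 and 146 (E16.5), 225, 265 and 257 (P0) and between 162 and 215 (P3). Per kilobase of annotated exon it was the lowest of the 10 genes at E16.5, P0 and P3, at 7.11 ± 1.35, 13.9 ± 1.177 and 10.04 ± 1.65 normalized counts per kb (SD, n = 3). At E13.5 it was level with Bmpr1b, at 8.12 ± 1.40 against 7.84 ± 3.21. No difference was called between E13.5 and E16.5 (log2 fold change -0.20, 95% interval -0.61 to 0.22, limma adjusted p 0.359). Bmpr2 was higher at P0 than at E16.5 by 0.97 (adjusted p 0.000388). From P0 to P3 it changed by -0.47 on the log2 scale (adjusted p 0.0369), a call that was lost without P0 library 3 or 4 or P3 library 1 or 3 (adjusted p 0.0889 to 0.114). Bmpr2 was higher at P3 than at E16.5 by 0.50 (adjusted p 0.0306), a call that was lost without E16.5 library 1 (0.34, adjusted p 0.143), without P3 library 4 (0.37, adjusted p 0.130) and under median-of-ratios factors (0.32, adjusted p 0.151).

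Smad1 and Smad5 encode the receptor-activated SMADs of the BMP branch. Smad1 lies on the - strand of chromosome 8 at 79338395 to 79399518. Normalized counts ran 3167, 3291 and 3499 (E13.5), 714, 839 and 753 (E16.5), 1790, 1867 and 1725 (P0) and 3379, 3470 and 3548 (P3). The E16.5 libraries were the lowest, the P0 libraries lay between, and E13.5 and P3 overlapped. Smad1 fell at E16.5 by 2.11 on the log2 scale (SE 0.0777, limma adjusted p 2.68e-13) and rose at P0 by 1.22 (adjusted p 7.89e-10). Its further rise of 0.95 at P3 (adjusted p 8.90e-09) was lost under equal library totals, at 0.11 (adjusted p 0.219). P3 was 2.17 above E16.5 (adjusted p 5.65e-13), and P3 against E13.5 gave 0.06 (95% interval -0.10 to 0.23, adjusted p 0.483).

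Smad5 lies on the + strand of chromosome 13 at 56703010 to 56742377. Normalized counts ran 1991, 2077 and 1993 (E13.5), 486, 604 and 596 (E16.5), 285, 338 and 286 (P0) and 1060, 1193 and 1109 (P3). Unlike Smad1, Smad5 was lowest at P0, and no pair of stages overlapped. It fell at E16.5 by 1.85 (log2, SE 0.106, limma adjusted p 6.64e-11), fell at P0 by 0.89 (adjusted p 1.82e-06) and rose at P3 by 1.89 (adjusted p 7.71e-11). Under equal library totals the fall at P0 was -0.23 (adjusted p 0.0944). Under the scaling of the table P3 stayed under E13.5, with a difference of -0.85 (log2, adjusted p 1.90e-06), which was -0.52 under equal totals.

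Smad6 and Smad7 encode the inhibitory SMADs. Smad6 lies on the - strand of chromosome 9 at 63953076 to 64022059, and Smad7 on the + strand of chromosome 18 at 75367529 to 75395935. Smad6 counts ran 973, 998 and 1209 (E13.5), 253, 224 and 227 (E16.5), 263, 268 and 278 (P0) and 552, 508 and 618 (P3). Its P3 libraries lay between E13.5 and the low levels of E16.5 and P0. Smad6 fell at E16.5 by 2.17 (log2, SE 0.120, limma adjusted p 4.21e-11) and was higher at P3 than at E16.5 by 1.25 (adjusted p 8.73e-08). Smad7 counts ran 616, 600 and 669 (E13.5), 155, 167 and 182 (E16.5), 331, 362 and 258 (P0) and 633, 679 and 672 (P3). It fell at E16.5 by 1.90 (SE 0.133, adjusted p 9.14e-10), and P3 overlapped E13.5. Smad7 was higher at P0 than at E16.5 by 0.90 (adjusted p 1.91e-05), while Smad6 was not called there (0.20, adjusted p 0.157); the difference between the genes was not tested. At P3 against P0 Smad6 rose by 1.05 (adjusted p 6.06e-07) and Smad7 by 1.07 (adjusted p 1.55e-06), and both calls were lost under equal library totals, with adjusted p of 0.131 and 0.124.

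The ID genes encode helix-loop-helix proteins that cannot bind DNA themselves. Id3 lies on the + strand of chromosome 4 at 136143497 to 136145755. Normalized counts ran 7395, 7495 and 8329 (E13.5), 141, 171 and 291 (E16.5), 370, 338 and 234 (P0) and 419, 339 and 367 (P3). At E13.5 it was the highest of the 10 genes per kilobase of exon, at 4321 ± 286 normalized counts per kb, above 96.4% of the genes compared; at E16.5 it was above 61.3%. Id3 fell at E16.5 by 5.33 on the log2 scale (SE 0.210, limma adjusted p 6.12e-13). P3 was still 20.6-fold under E13.5 (-4.37 on this scale, adjusted p 1.34e-11). A rise of 0.68 from E16.5 to P0 (adjusted p 0.0101) came with overlapping libraries and was lost without E16.5 library 1 (0.46, adjusted p 0.0721) or P0 library 1 (0.55, adjusted p 0.0557). Id3 was higher at P3 than at E16.5 by 0.96 (adjusted p 0.000676).

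Id2 lies on the - strand of chromosome 12 at 25093799 to 25097140. Normalized counts ran 1144, 1014 and 1137 (E13.5), 87, 74 and 122 (E16.5), 204, 204 and 156 (P0) and 97, 70 and 82 (P3). All E13.5 libraries stood far above the rest, and P0 stood above E16.5 and P3 without overlap. Id2 fell at E16.5 by 3.56 (log2, SE 0.195, limma adjusted p 3.78e-11), rose at P0 by 1.01 (adjusted p 0.000290) and fell at P3 by 1.17 (adjusted p 4.00e-05). At P3 it was 13.25-fold under E13.5. These 3 calls and their directions held under each scaling.

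Id1 lies on the + strand of chromosome 2 at 152736251 to 152737410. Normalized counts ran 690, 638 and 692 (E13.5), 144, 132 and 231 (E16.5), 236, 201 and 155 (P0) and 224, 229 and 182 (P3). The later stages overlapped each other and all lay under E13.5. Id1 fell at E16.5 by 2.03 (log2, SE 0.201, limma adjusted p 8.03e-08), and P3 was 3.18-fold under E13.5 (adjusted p 1.26e-06). Neither P0 against E16.5 (0.25, 95% interval -0.18 to 0.67, adjusted p 0.301) nor P3 against P0 (0.11, 95% interval -0.31 to 0.54, adjusted p 0.620) was called. Under equal library totals P0 was called higher than E16.5 (0.91, adjusted p 0.00104) and P3 lower than P0 (-0.72, adjusted p 0.00434). Without E16.5 library 4, Id1 was higher at P0 than at E16.5 by 0.49 (adjusted p 0.0312) and at P3 than at E16.5 by 0.61 (adjusted p 0.00901).

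**Figure D2:**
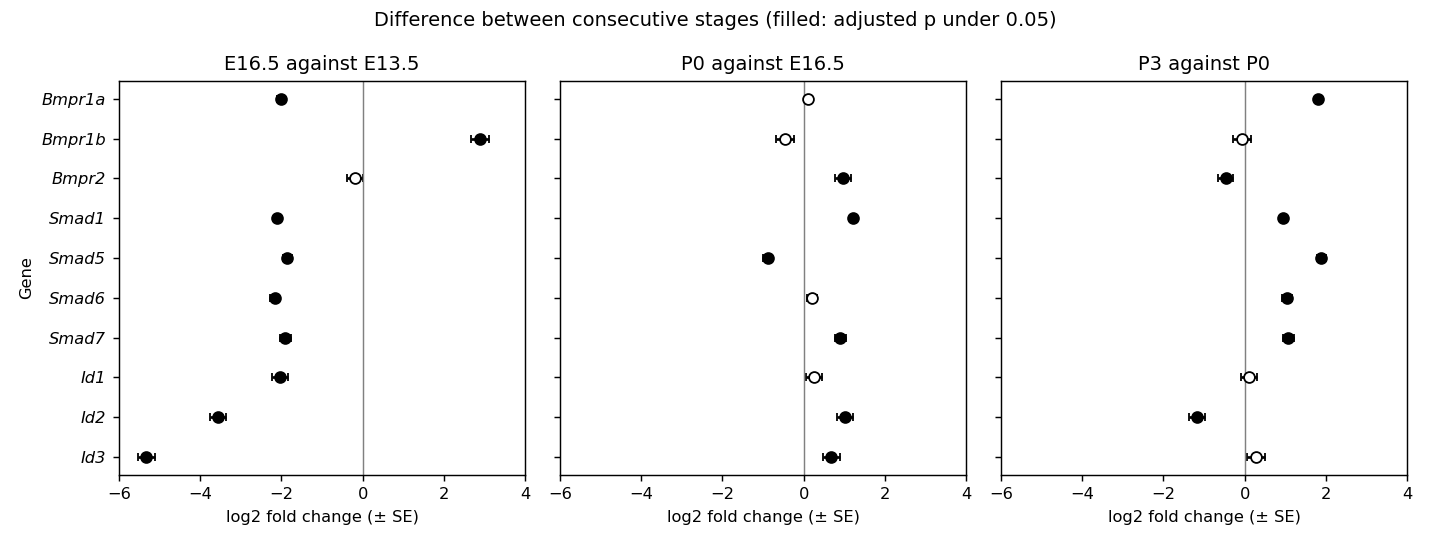
Difference of each gene between consecutive stages, as log2 fold change (horizontal axis) with its standard error from limma. Filled points have an adjusted p under 0.05. At E16.5 against E13.5 every gene but Bmpr1b and Bmpr2 fell, by 1.85 (Smad5) to 5.33 (Id3). The P0 panels move as a whole with the scaling.

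Within E16.5 and within P0, library 4 was the extreme of its stage in the ID genes and in markers of some other cell types. The 6 Leydig cell markers (4 with at least 10 normalized counts in a library at E13.5 and at P3, 5 at E16.5, all at P0) summed to 623.1, 1236 and 7763 in E16.5 libraries 1, 3 and 4, and to 6201, 3169 and 1133 in P0 libraries 1, 3 and 4. Library 4 of E16.5, the highest in these markers, also had the highest Id1, Id2 and Id3 of its stage. Library 4 of P0, the lowest, had the lowest Id1, Id2 and Id3. The same libraries were the highest of E16.5 (2813) and the lowest of P0 (3289) in the summed Sertoli markers. They were also the highest of E16.5 (2513) and the lowest of P0 (1599) in the summed red blood cell markers. Among the other libraries the order was mixed. Library 3 of E16.5 had a higher Leydig sum than library 1 but lower Id1 (132 against 144) and Id2 (74 against 87). At P0, Id2 was 204 in both library 1 and library 3. Id3 followed the order of the Leydig sums at both stages, and Id1 did so at P0. Library 4 of P0 was the lowest of its stage in the macrophage (135.1) and mast cell (2387) sums too, while library 4 of E16.5 was not the highest in either. At E16.5 Kit, which is also on the spermatogonia list, averaged 2804 of a mean mast cell sum of 2832. The mast cell sum therefore cannot rank the E16.5 libraries by mast cells. At E13.5 the Leydig sum was 573.5 to 729.4, with Id3 at its highest level of any stage. At P3 it was 179.2 to 267.5, with the defining markers Insl3 and Lhcgr at 0. These 2 were also low at E13.5, at 1.78 ± 0.627 and 3.54 ± 2.42, and Insl3 did not pass 11.5 in any library. The Leydig sums thus rest mostly on Cyp11a1, Hsd3b1, Cyp17a1 and Star. With E16.5 library 4 and P0 library 1 left out, the falls at E16.5 were called as before for all 3 ID genes. Without them Id3 rose from P0 to P3 by 0.41 (limma adjusted p 0.0309) and Id1 was higher at P3 than at E16.5 by 0.61 (adjusted p 0.00625). The part of these cell types in the ID counts of E16.5 and P0 was not tested beyond this.

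**Figure D3:**
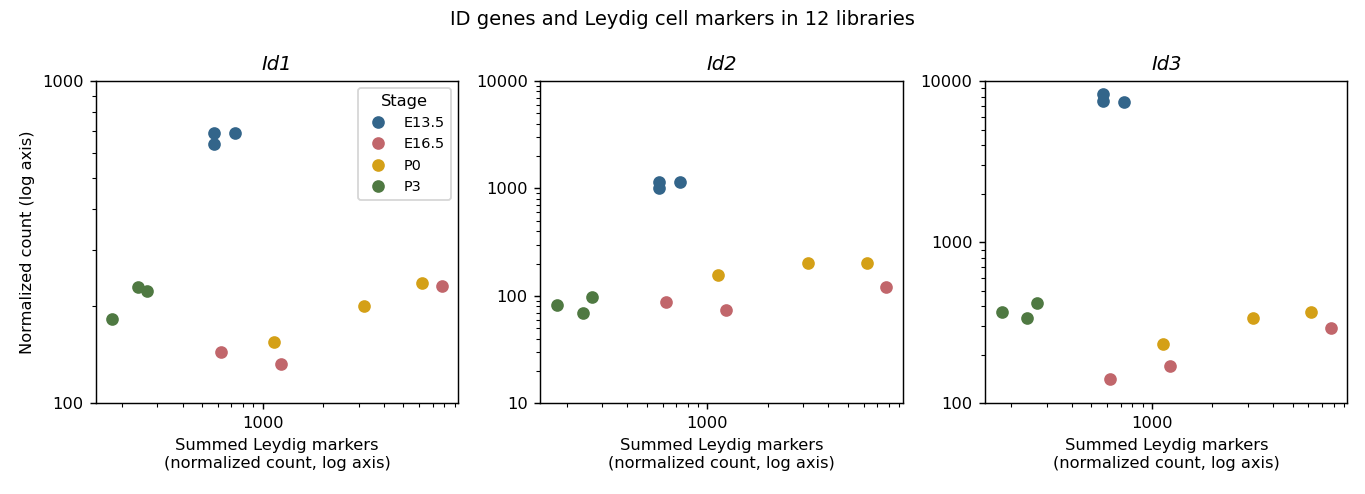
Normalized counts of Id1, Id2 and Id3 (vertical log axes) against the summed normalized count of 6 Leydig cell markers (horizontal log axis) in 12 libraries, coloured by stage. The 3 E13.5 libraries hold the highest ID counts at Leydig sums of 573.5 to 729.4, and within E16.5 the library with a sum of 7763 is the highest in each ID gene.

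At P0 against E13.5, both tagged Morc1 (+/-), 8 of the 10 genes were lower and 2 (Bmpr1b and Bmpr2) were higher, where 40.5% and 45.7% of all tested genes were called in these directions. With equal library totals the split was 6 lower and 3 higher, Smad1 being then higher at P0, by 0.28 (limma adjusted p 0.00375), and Smad7 not called. At P3 against E16.5, both tagged Morc1 (-/-), 7 were higher (Bmpr1a, Bmpr2, Smad1, Smad5, Smad6, Smad7 and Id3) and 1 (Bmpr1b) was lower, where 34.2% and 35.2% of all tested genes were called. Bmpr1a, Smad1 and Smad7 were 3.77-fold, 4.51-fold and 3.94-fold higher at P3 than at E16.5, while Id2 was not called (log2 fold change -0.17, 95% interval -0.58 to 0.25, adjusted p 0.459). At P3 against E13.5, which crosses the tag, 5 were lower (Smad5, Smad6, Id1, Id2 and Id3) and 1 (Bmpr1b) was higher, where 31.2% and 39.2% of all tested genes were called. With equal library totals this split was 5 lower and 5 higher.

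Ratios within a library do not depend on its size factor. They were taken on counts per kilobase of exon and compared with two-sided exact permutation tests, in which 3 libraries against 3 cannot give a p under 0.1. The ratio of Bmpr1a to Bmpr1b ran 137.0, 60.9 and 100.7 (E13.5), 3.15, 3.03 and 3.12 (E16.5), 4.91, 4.98 and 3.99 (P0) and 15.9, 16.49 and 18.4 (P3). BMPR1A transcripts thus outnumbered those of BMPR1B in every library, by a margin that was 32.1-fold smaller at E16.5 than at E13.5. The ratio of Smad1 to Smad5 ran 1.95 ± 0.115 (E13.5), 1.63 ± 0.123 (E16.5), 7.05 ± 0.463 (P0) and 3.67 ± 0.195 (P3; SD, n = 3). For both ratios no stages overlapped, and the exact p was 0.1 in all 6 comparisons of each.

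The summed inhibitory SMADs varied little against the summed receptor-activated SMADs, within 0.432 to 0.635 over the 12 libraries. The ratio of Smad6 plus Smad7 to Smad1 plus Smad5 ran 0.585 ± 0.0442 (E13.5), 0.560 ± 0.0671 (E16.5), 0.471 ± 0.0116 (P0) and 0.455 ± 0.0228 (P3). E13.5 overlapped E16.5 (exact permutation p 0.5, n = 3 each) and P0 overlapped P3 (p 0.4), whereas the fetal stages lay above the postnatal ones without overlap (p 0.1). The ratio of Id1 plus Id2 plus Id3 to Smad1 plus Smad5 changed far more. It ran 6.67 ± 0.258 (E13.5), 1.499 ± 0.492 (E16.5), 1.29 ± 0.238 (P0) and 0.606 ± 0.0688 (P3). The P3 libraries, at 0.684, 0.581 and 0.553, were thus 11.01-fold under E13.5 while Smad1 counts of P3 and E13.5 overlapped. E16.5 and P0 overlapped (exact permutation p 0.6), and all other pairs of stages did not (p 0.1).

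**Figure D4:**
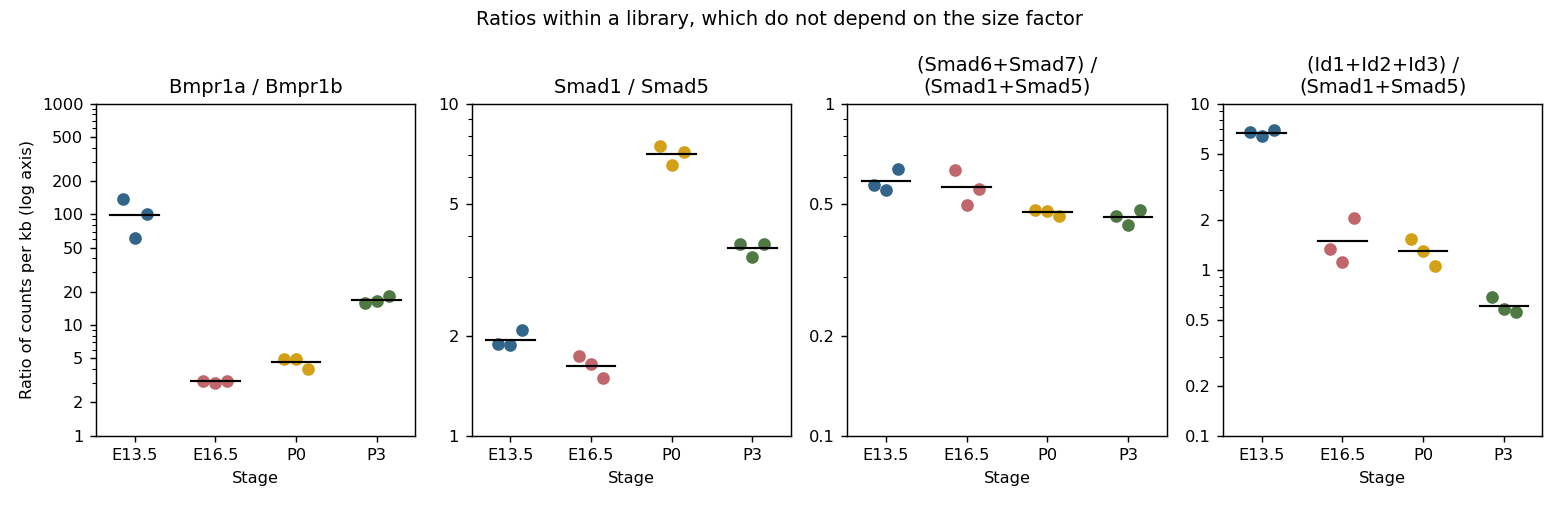
Ratios of counts per kilobase within each library (log axes), by stage, with the mean of 3 libraries as a black line. The ratio of Id1, Id2 and Id3 (without Id4) to Smad1 plus Smad5 falls from 6.67 at E13.5 to 0.606 at P3. That of Smad6 plus Smad7 stays between 0.432 and 0.635 in all 12 libraries.

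The makeup of the Id1, Id2 and Id3 transcripts changed as their sum fell. Per kilobase the 3 genes summed to 5352 ± 313 normalized counts per kb at E13.5 and to 296.8 ± 99.6, 422.7 ± 85.0 and 425.8 ± 36.5 at E16.5, P0 and P3. The share of Id3 in this sum ran 80.7% ± 1.05 (E13.5), 37.5% ± 3.83 (E16.5), 41.3% ± 1.40 (P0) and 49.2% ± 3.23 (P3; SD, n = 3). Id1 made up 10.9% ± 0.533 at E13.5 and 49.3% ± 2.43 at E16.5. Id2 reached its highest share at P0, at 18.4% ± 1.34. Id4, described further on, is in neither this sum nor the ratio to Smad1 plus Smad5. It stood at 421.7 ± 30.1 (E13.5), 96.1 ± 11.3 (E16.5), 183.7 ± 14.7 (P0) and 2302 ± 97.0 (P3) normalized counts per kb. The low P3 sum and ratio therefore do not hold for all ID genes.

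On the scale of counts per kilobase, the order of the genes changed between stages. At E13.5 Id3 was followed by Bmpr1a (703.1 ± 47.4), Id1 (580.4 ± 26.6), Smad1 (530.0 ± 26.8), Id2 (450.5 ± 30.0), Smad6 (330.8 ± 40.5), Smad5 (272.3 ± 6.65) and Smad7 (139.0 ± 7.99). At E16.5 Bmpr1a (173.5 ± 12.6) led, and its neighbours Id1 (145.8 ± 46.6), Smad1 (122.7 ± 10.2) and Id3 (112.3 ± 44.3) lay within the spread of the ID genes. At P0 Smad1 led with 286.5 ± 11.4, and Bmpr1a (186.1 ± 2.81), Id3 (175.3 ± 39.9) and Id1 (170.3 ± 34.8) did not differ beyond their spread. At P3 Bmpr1a (653.5 ± 24.8) and Smad1 (553.4 ± 13.49) stood well above Id3, at 209.4 ± 22.6.

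Other genes of the pathway were read from lists that were written with earlier results of these data known. Their counts stand beside the shares of all tested genes called higher and lower, which were 45.5% and 34.6% for E16.5 (against E13.5), 27.6% and 33.4% for P0 (against E16.5) and 40.1% and 36.4% for P3 (against P0). The medians of all tested genes in these 3 comparisons were 0.31, -0.01 and 0.05 on the log2 scale. Of 15 ligand genes, 13 were tested (Bmp10 and Gdf7 were too low), and 8 were higher and 3 lower at E16.5 than at E13.5 (10 and 3 of 14 with equal library totals). At P0, 7 were higher and 1 lower than at E16.5 (10 and 1 of 14). The list's medians were 2.30, 0.45 and -2.30. The 8 ligand genes higher at E16.5 had E13.5 means of at most 27.0 normalized counts, while Bmp7 and Bmp4, with the highest E13.5 means of the list, fell. The count and the median at E16.5 thus rest mostly on ligand genes with few reads at E13.5. Bmp7, the ligand gene with the highest level, stood at 3480 ± 224 (E13.5), 1660 ± 170 (E16.5), 854.6 ± 59.8 (P0) and 4089 ± 241 (P3) normalized counts. It fell at E16.5 by 1.07 (log2, limma adjusted p 8.63e-09) and rose at P3 by 2.26 (adjusted p 1.06e-12). Bmp4, the ligand that specifies primordial germ cells, fell at E16.5 by 1.74 (adjusted p 1.68e-09) and fell at P3 against P0 by 1.58 (adjusted p 7.57e-09), ending at 163.9 ± 22.9. Bmp6 was at 27.0 ± 1.51, 162.2 ± 25.5, 434.6 ± 15.2 and 803.1 ± 107 through the 4 stages, a rise of 2.53 at E16.5 (adjusted p 2.50e-10). Bmp8b, a germ line ligand with a close copy in Bmp8a, was at 4.63 ± 4.28 at E13.5 and 115.2 ± 14.1 at E16.5. Bmp3 had no read at E13.5 and fell between P0 (196.2 ± 13.6) and P3 (6.62 ± 3.17) by 4.77 (adjusted p 1.82e-08). At P3 against P0, 2 of the 13 ligand genes were higher and 9 lower, or 1 and 12 of 14 with equal library totals.

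Of 8 other receptors and co-receptors tested, 1 was higher and 5 were lower at E16.5 (2 and 3 with equal library totals). Then 5 were higher and 1 lower at P0 (6 and 0 with equal totals), and 2 higher and 3 lower at P3 against P0 (0 and 8). The medians were -0.50, 0.51 and -0.01. Acvr2b, an activin type II receptor that also binds BMPs, stood at 3251 ± 115 (E13.5), 1271 ± 30.9 (E16.5), 1934 ± 167 (P0) and 2594 ± 125 (P3), and fell at E16.5 by 1.35 (limma adjusted p 6.64e-11). In these libraries it thus lay above Bmpr2 per kilobase at every stage, at 323.5 or more against at most 13.9. Acvrl1, the type I receptor ALK1 of endothelial cells, rose at E16.5 by 3.96 (adjusted p 1.29e-08) to 463.7 ± 13.8. Among the 7 endothelial markers (4 with at least 10 normalized counts in a library at E13.5, 7 at E16.5), Tie1 and Emcn were at 0 at E13.5 and at 214.7 ± 28.6 and 46.1 ± 11.6 at E16.5, and Tek went from 98.0 ± 10.9 to 387.3 ± 39.6. The sum of the list went the other way, with 4952 to 5706 (E13.5) and 934.7 to 1150 (E16.5), and with Pecam1 at 4618 ± 400 and 281.8 ± 74.3. The part of endothelial cells in the Acvrl1 count was not tested. Rgma, a BMP co-receptor, fell by 2.27 (adjusted p 3.03e-08) to 230.5 ± 31.7. Rgmb, its relative, was at 3568 ± 155 at E13.5 and 2648 ± 141 at E16.5; the change of -0.43 (log2, adjusted p 3.27e-05) turned to 0.076 (adjusted p 0.274) under equal library totals. Amhr2, the receptor of anti-Mullerian hormone, was higher at P0 than at E16.5 by 1.11 (adjusted p 0.000622), with 1024 ± 314. The mean Sertoli sum was 2130 at E16.5 and 4972 at P0, and the part of Sertoli cells in the Amhr2 count was not tested. Among activin and TGF-beta receptors, 5 were tested, and 1 was higher and 2 were lower at E16.5 (2 and 2 with equal totals), 3 higher and 0 lower at P0 (4 and 0), and 2 each way at P3 (1 and 2). The medians were -0.41, 0.75 and 0.42. Tgfbr1 fell by 1.05 (adjusted p 1.37e-07) and Tgfbr3 fell by 0.98 (adjusted p 0.000160), while Tgfbr2 was at 27.7 ± 7.74 at E13.5 and 225.5 ± 8.88 at P3.

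Secreted antagonists and the pseudoreceptor Bambi counted 14 tested genes, of which 7 were higher and 5 lower at E16.5 (8 and 1 with equal library totals), shares near those of all tested genes under the scaling of the table. At P0 against E16.5, 7 were higher and 0 lower (14 and 0), and at P3 against P0, 4 were higher and 10 lower (2 and 11). The medians were 0.60, 0.85 and -1.17. Fst, which encodes the activin and BMP antagonist follistatin, rose at P3 by 2.49 (limma adjusted p 2.78e-12), from 577.5 ± 47.0 to 3256 ± 176. Chrdl1, a chordin-like antagonist, rose at E16.5 by 4.51 (adjusted p 1.06e-12) to 481.2 ± 45.3, and Bmper rose by 3.62 (adjusted p 7.37e-07) to 143.9 ± 7.04. Twsg1 fell at E16.5 by 0.73 (adjusted p 8.15e-07). Bambi, which encodes a decoy without kinase activity, fell by 0.61 (adjusted p 2.84e-05), a call that was lost under equal library totals (-0.10, adjusted p 0.324).

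Of 11 other SMADs and SMAD regulators, 8 were lower and 3 higher at E16.5 (7 and 3 with equal library totals). At P0 against E16.5, 4 were higher and 5 lower (8 and 2), and 7 were higher and 2 lower at P3 than at P0 (4 and 4). The medians were -0.93, -0.03 and 0.96. Smad4, the common partner, fell at E16.5 by 0.93 (limma adjusted p 1.48e-07) and rose at P3 by 1.19 (adjusted p 8.21e-09), with means of 7274 ± 599, 3815 ± 416, 2341 ± 264 and 5341 ± 345 through the 4 stages. Smad2, of the activin branch, fell at E16.5 by 0.79 (adjusted p 1.54e-08), and Ski, a SMAD corepressor, fell by 1.60 (adjusted p 9.85e-11) and rose at P3 by 1.87 (adjusted p 2.06e-11). Smad9, the third receptor-activated SMAD of the BMP branch, went the other way: it was at 7.79 ± 4.34 at E13.5, rose by 4.42 (adjusted p 4.55e-10) to 174.0 ± 28.6 at E16.5 and was at 376.1 ± 40.8 at P0 and 87.6 ± 2.86 at P3. Zfp423, a SMAD cofactor, rose at E16.5 by 3.08 (adjusted p 9.71e-10). Bmpr1b, Smad9, Acvrl1, Chrdl1, Bmper and Zfp423 were all lowest at E13.5, the stage with the lowest sums of peritubular, interstitial and macrophage markers. The endothelial sum was highest at E13.5, with a mean of 5232, most of it from Pecam1 (4618) and Cldn5 (503.4). The other endothelial markers, Tie1, Emcn, Kdr, Cdh5 and Tek, had their lowest means at E13.5. The part of these cell types in the counts of Bmpr1b, Smad9 and the other genes named with them was not tested.

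Of 8 other target genes, 4 were higher and 3 lower at E16.5 under each scaling, shares near those of all tested genes. At P0, 5 were higher and 0 lower (8 and 0 with equal library totals), and at P3 against P0, 3 were higher and 5 lower (1 and 5). The medians were 0.70, 0.98 and -0.73. Id4, the fourth ID gene and a known marker of spermatogonial stem cells, fell at E16.5 with the others, by 2.13 (limma adjusted p 2.96e-12). It then rose at P3 by 3.65 (adjusted p 2.74e-14), with means of 1623 ± 116, 369.8 ± 43.3, 706.9 ± 56.4 and 8861 ± 373, and so was higher at P3 than at E13.5, where Id1, Id2 and Id3 were lower. Hey1 fell at E16.5 by 2.13 (adjusted p 1.25e-12) and fell at P3 by 1.43 (adjusted p 2.85e-10). Msx1 fell at E16.5 by 4.10 (adjusted p 1.95e-09), from 398.9 ± 8.81 to 24.4 ± 12.2. Atoh8 rose at E16.5 by 1.80 (adjusted p 3.20e-06). The 3 E proteins that ID proteins bind all fell at E16.5, and 0 were higher and 1 lower at P0 (2 and 1 with equal library totals), then 2 higher and 1 lower at P3 (1 and 2). Tcf3 was the highest, at 19520 ± 661, 13060 ± 1691, 2920 ± 284 and 11200 ± 1023, with falls of 0.59 at E16.5 (adjusted p 2.39e-05) and 2.16 at P0 (adjusted p 1.07e-11); the first was lost under equal library totals (-0.08, adjusted p 0.383). Tcf12 fell at E16.5 by 0.90 (adjusted p 7.36e-08) and Tcf4 fell by 1.48 (adjusted p 2.77e-10).

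**Figure D5:**
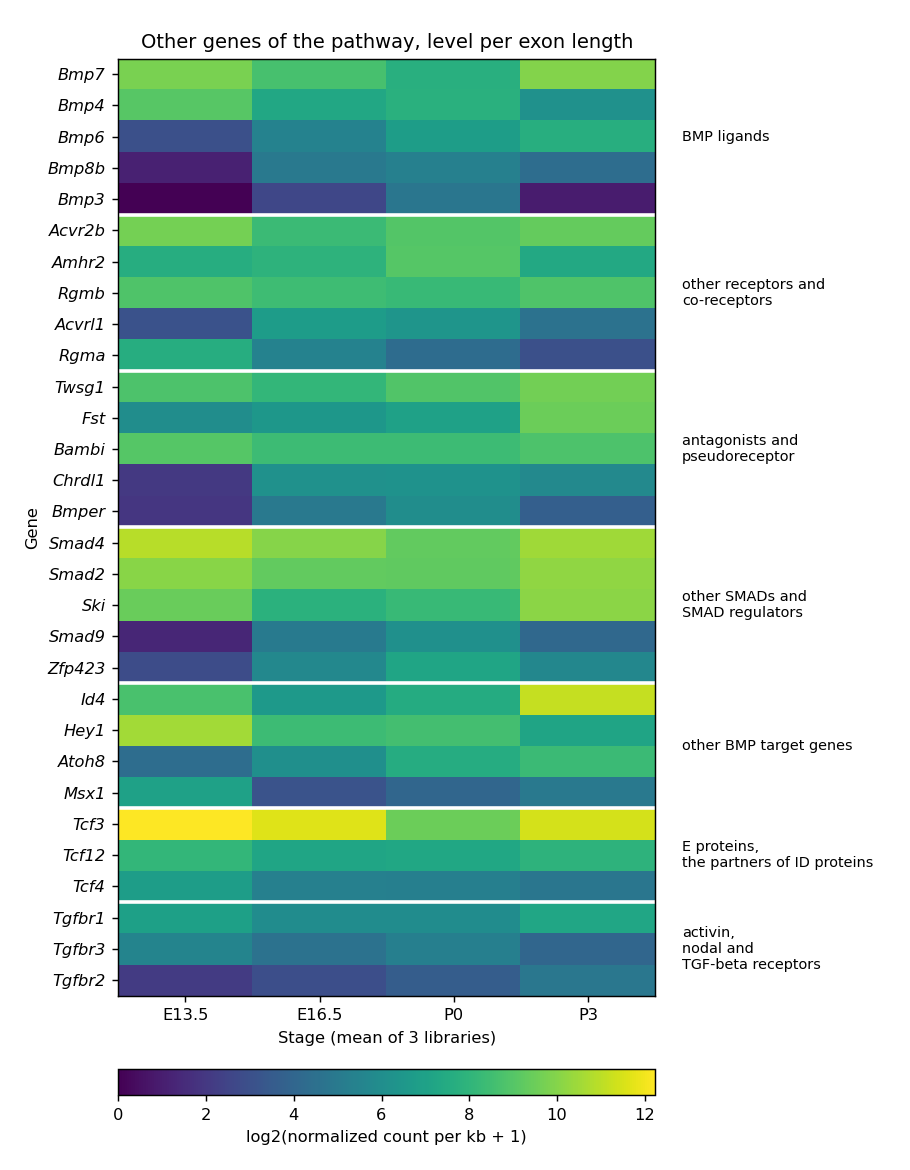
Mean level of 30 further pathway genes at each stage (colour: log2 of normalized counts per kb plus 1, mean of 3 libraries), grouped by list. Tcf3 at E13.5 is the highest cell, Id4 is highest at P3, and Bmp8b, Bmp3 and Smad9 are darkest at E13.5.

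The genes whose profile over the 12 libraries was most like that of a member are given as a description, among 12200 candidates with a mean of at least 100. The libraries fall into 4 stage clusters, so a high Pearson r here mostly says that the stage means run alike. Closest to Bmpr1a was Hells, a chromatin remodeller (r = 0.998). Closest to Smad1 was Rnf115 (r = 0.993), to Smad5 Klhl24 (r = 0.997), to Smad6 Zfp746 (r = 0.993) and to Smad7 Eid1 (r = 0.993). Id1 was closest to another gene of the set, Id3 (r = 0.984), and Id3 to Akt1s1 (r = 0.994), with Wnt3, a ligand needed for the specification of primordial germ cells, next (r = 0.991). Closest to Id2 was Acadl (r = 0.996), and Socs2 was also among its nearest (r = 0.993). Bmpr1b was closest to Cdc20b (r = 0.988), with the collagen gene Col5a1 also near (r = 0.986), and Bmpr2 to Zcchc24 (r = 0.949).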

How the data were processed

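Per the labels' protocols, low-input RNA was amplified by SMART-seq v4, and TruSeq kits served for the sequencing libraries. The submitters' processing notes name bcl2fastq 2.20, cutadapt 1.18, HISAT2 2.1.0, featureCounts 1.5.2 and DESeq2 1.26.0 and the build mm10/GRCm38. Strandedness and the treatment of multi-matching reads are not given in the sources used here. The deposited signal is a read count per gene divided by a size factor per library (relative log expression), called a normalized count. Multiplied by a size factor per library (0.919 to 2.07), 100% of values came out as whole reads within 0.001, and these reads were recovered. All 12 value columns were used, assigned to a stage by their heads.

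Since the values are scaled, limma 3.58.1 (R 4.3.3; trend, 8 residual degrees of freedom, all 4 stages in 1 fit) was applied to log2(value + 1). Entering the fit took 10 or more normalized counts in 3 or more libraries, which 22384 genes had. A call is a Benjamini-Hochberg adjusted p under 0.05 over all tested genes. Fold changes in the text without the word log2 are ratios of stage means. Intervals are 95% limma intervals. Counts per kb use the union of GENCODE M21 exons. Amplified reads carry no molecular identifiers, so the counts may hold copies. On the recovered reads the quasi-likelihood test of edgeR 4.0.16 called 17851, 14370 and 17358 genes in the 3 consecutive comparisons against 17932, 13658 and 17122 by limma, and DESeq2 1.42.0 called 17806, 14156 and 17233.

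The members and gene lists were chosen with earlier results of these data known. All members are named. Of each pathway list the text names up to 3 genes with the highest stage mean per exon length and up to 2 with the largest change past the threshold (and 100 or more normalized counts, on average, where higher). Symbols matched 55141 of 55487 identifiers (99.4%). Hjv matched none. Genes most like a member are the 3 with the highest Pearson r. Cell type markers were summed by type. Alternatives were other scalings (TMM, median-of-ratios, poscounts, equal library totals), pseudocounts (0.1, 10), filters (none, mean of 100 or more), a minimal log2 change of 1, fits restricted to 2 stages, edgeR, DESeq2 and omission of single libraries. Leaving out the 2 libraries highest in Leydig markers and a replicate block on the column number were added after seeing the data. The methods were tested on simulated data. Promoters are from RefSeq. Python 3.11.15, numpy 2.4.6, pandas 2.3.3 and matplotlib 3.10.9 were used.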

Additional observations from a re-analysis of the deposited data

How the results depend on the processing

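Column heads number the libraries 1, 3 and 4, unlike the sample titles. Over the 18 pairs of same-numbered libraries of different stages, deviations from the stage means correlated at -0.036 to 0.042 (Pearson r, across genes). Of 12 libraries, 3 correlated best with one of their own number. No deviation shared by number was thus seen. What the numbers stand for is not stated, and these correlations cannot show whether same-numbered libraries have a common origin. A replicate block on the column number, added after seeing the data, called 17911, 13529 and 17028 genes in the 3 consecutive comparisons and 9, 6 and 7 members, as many members as without the block. Over 26 alternatives and 60 comparisons of single members, 1481 of 1560 values kept direction and side of the threshold, 22 gained a call, 42 lost it and 15 reversed, and 29 comparisons kept both under all. When single libraries were omitted, called members numbered 9 (E16.5 against E13.5), 5 to 7 (P0 against E16.5), 6 to 7 (P3 against P0), 10 (P0 against E13.5), 6 to 8 (P3 against E16.5), 6 (P3 against E13.5) and 10 (F-test). Requiring a log2 change of 1 or more lowered 6 to 2 (P0 against E16.5) and 8 to 4 (P3 against E16.5), by construction. Equal library totals raised 6 to 10 (P3 against E13.5), and there took the median over all tested genes from 0.16 to 0.47 (log2); the cause was not tested further.

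Reversed log2 fold changes under equal library totals were Bmpr1a at P3 against E13.5 (0.22), Bmpr1b at P0 against E16.5 (0.20), Bmpr2 at E16.5 against E13.5 (0.31), Smad1 and Smad7 at P0 against E13.5 (0.28 and 0.17), Id1 and Id3 at P3 against P0 (-0.72 and -0.56), and Rgmb at E16.5 against E13.5 (0.076). Under median-of-ratios factors they were Bmpr2 at E16.5 against E13.5 (0.024) and Id1 and Id3 at P3 against P0 (-0.33 and -0.16), and under TMM Id1 at P3 against P0 (-0.058). Over the omission of single libraries, Bmpr1b ranged from -0.12 to 0.031 and Id1 from -0.049 to 0.25 at P3 against P0, both reversed without P0 library 4. Id2 at P3 against E16.5 ranged from -0.32 to 0.031, reversed without E16.5 library 4, and was 0.031 without both libraries highest in Leydig markers, an alternative chosen after seeing the data. Of these, only Smad1, Smad7 and Rgmb had been called under the scaling of the table. The falls of Bmpr1a, Smad1, Smad5, Smad6, Smad7, Id1, Id2 and Id3 and the rise of Bmpr1b at E16.5 against E13.5 were called in the same direction under all 26 alternatives. Depth limits Bmpr1b at E13.5, with 31 to 63 reads per library, and Bmp8b and Smad9 there, with at most 12. Reads per library at E13.5 were also few for Bmper (4 to 24), Chrdl1 (14 to 24), Acvrl1 (15 to 47) and Zfp423 (22 to 44). The same holds for Bmp6 (24 to 26), Tgfbr2 (18 to 31) and Atoh8 (32 to 73) there, and for Msx1 at E16.5 (14 to 47). Large log2 changes of these genes start or end near the floor.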
